A study of Mus musculus with 6 samples.

Results

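The collagen and laminin genes are the genes whose symbols have the form of a collagen alpha chain (Col, a number, a and a number) or of a laminin alpha, beta or gamma chain (Lama, Lamb or Lamc and a number). There were 54 such genes among the 22651 genes measured, 43 collagens and 11 laminins, and the rule that picks them uses their names and no measured value. mRNA-sequencing was performed on telencephalon tissue of WT (n = 3) and TSC1 (n = 3) mice at postnatal day 0. All 6 mice carried the floxed allele, and the genotypes were TSC1 flox/flox;Emx1 +/+ for WT and TSC1 flox/flox;Emx1-cre/+ for TSC1. Cre was driven from the Emx1 locus, which is active in progenitors of the dorsal telencephalon, so the deletion that activates mTOR signaling is made in their descendants and not in every cell of the tissue. The comparison of TSC1 with WT asks which of these genes differ in level in forebrain tissue with hyperactivated mTOR signaling.

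Collagens and laminins are the main structural proteins of the extracellular matrix. In the brain, fibrillar collagens of types I, III and V are made mostly by the fibroblasts of the meninges, the coverings of the brain. Type IV collagen and laminins form the basement membranes, thin sheets that underlie the pial surface of the cortex and surround the blood vessels. Collagen III of the meninges is also a ligand of the receptor Gpr56 on neural progenitors, and pial laminins anchor the end feet of radial glia.

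Across the family, 1 gene passed the test and the rest did not. Col18a1, whose product is a collagen of basement membranes and the source of endostatin, was lower in TSC1. Of the 51 members with enough counts to be tested, 41 had a log2 fold change (TSC1 against WT) below 0, where 50.7% of all 13969 genes tested did. The median log2 fold change of the members was -0.29 and that of all genes was 0.00 at the same rounding, or -0.00267. The fibrillar collagens Col1a1, Col1a2 and Col3a1 were lower in TSC1 replicates 1 and 2 than in any WT library, but not in TSC1 replicate 3, and no fibrillar collagen of the meninges passed the test over all 6 libraries.

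The libraries held between 14119365 and 17772865 expected counts, estimates of the reads that came from each gene, and 3 counts corresponded to between 0.169 and 0.212 CPM, counts scaled to the library total. The first principal component took 47.7% of the variance and placed TSC1 replicate 3 at -3.95, apart from the other TSC1 libraries at 26.5 and 30.3 and beside the WT libraries at -26.3 to -7.43. Xist, which is transcribed in females, was at 0.48 and 0.66 TPM in the number 3 libraries of WT and TSC1 and between 442 and 509.9 TPM in the others, so both groups held animals of both sexes in the same proportion. Tsc1 itself was at 50.2, 32.0 and 28.4 TPM in WT and at 27.1, 21.7 and 22.4 TPM in TSC1, with an edgeR adjusted p of 0.09998. A gene-level value also counts reads of exons that the deletion leaves in place, and of cells without Cre, so it checks the labels only in part. The telencephalon marker Neurod6 was between 793 and 1103 TPM in the 6 libraries. In bulk tissue, fewer cells of a type and less RNA per cell cannot be told apart, and this holds for every level below.

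Levels are given in TPM, the share of each gene among all transcripts, which is scaled by transcript length and can be compared between genes. Fold changes, their standard errors (SE) and adjusted p-values are from edgeR's quasi-likelihood test on the counts, with 3 mice per group, and a gene was called when its p, adjusted over all 13969 genes, was below 0.05. By that rule 0.659% of all genes tested were called lower in TSC1 and 0.859% higher, against 1 and 0 of the 51 members tested. At an unadjusted p below 0.05, 10 members were lower, where 8.93% of all genes were, and 2 were higher, where 9.04% were. The groups did not overlap, on the log2 CPM scale, for 6 members lower in TSC1 (among them Col18a1, Col22a1, Col8a1 and Col8a2) and for 1 higher (Col24a1), where 11.7% and 10.9% of all genes were so separated. DESeq2, on the same counts, called 4 members lower (Col18a1, Col22a1, Col8a1 and Col8a2) and 1 higher (Col24a1), against 2.15% and 2.43% of all genes. These shares of all genes also belong beside the counts given for each gene and marker list below.

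**Figure D1:**
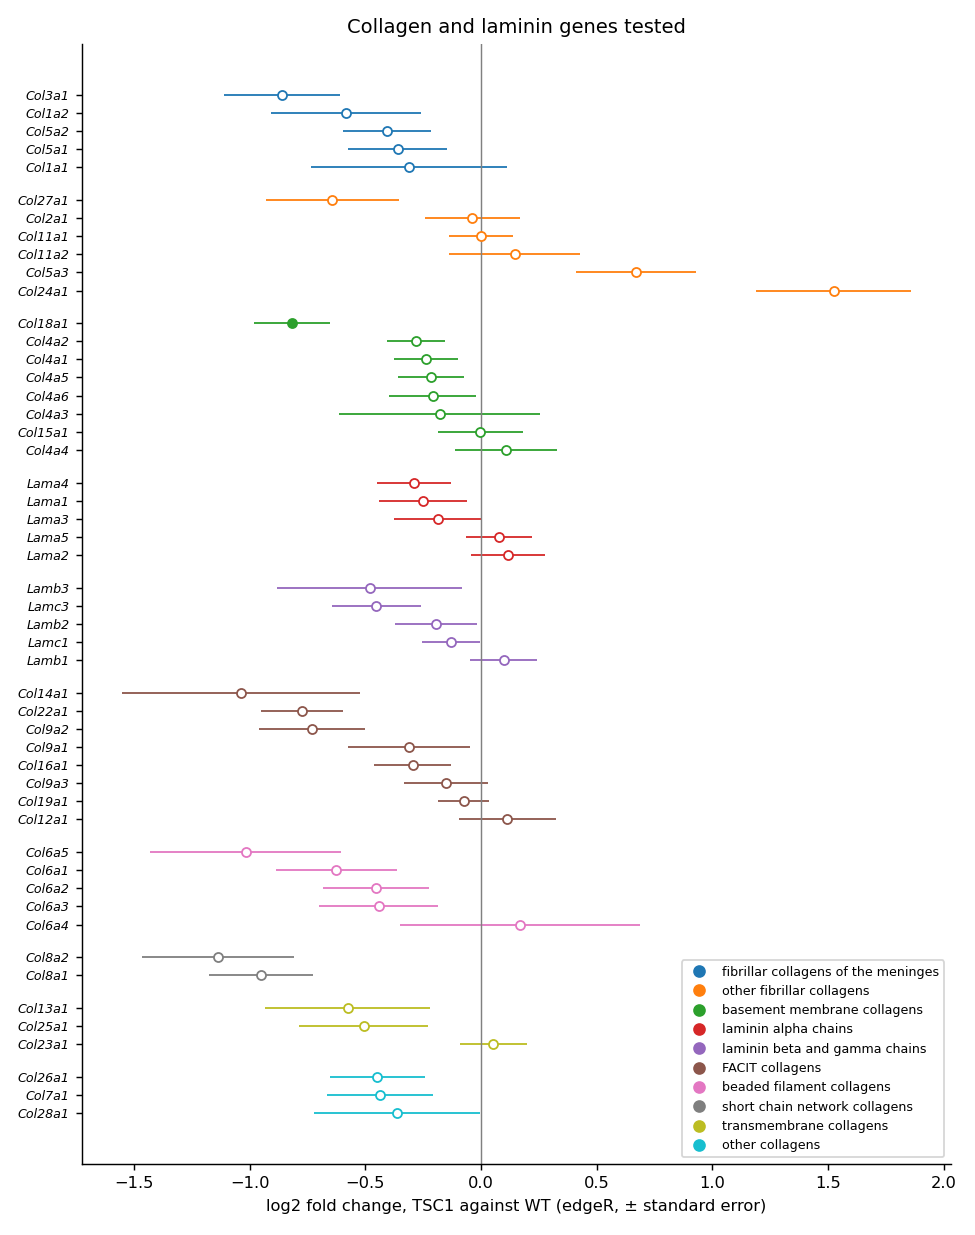
Log2 fold change of TSC1 against WT (horizontal axis, edgeR, points with standard error bars, 3 mice per group) for 50 of the 51 tested members, grouped and coloured by role, with filled points for an adjusted p below 0.05. Col18a1 is the only filled point, at -0.82, and 40 of the 50 points lie left of 0.

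Regions just upstream of the transcription start are shown for Col18a1, for Col8a1, Col8a2 and Col24a1, which DESeq2 also called, and for Col3a1. Col3a1 is the member of the 5 meningeal fibrillar collagens with the largest fold change. No region is shown for Col22a1, which DESeq2 called lower. They are RefSeq windows of GRCm38.p6 on the strand of the gene, up to 150 bases long and ending at the base before the start or before the first annotated exon. Capitals mark a match on either strand to one of the motifs searched. These were the TATA box, spelled TATAAA, the CCAAT box, spelled by its own name, and the GC box, spelled GGGCGG, whose matches may overlap each other. Col18a1 has more than 1 start, and the window is that of the distal start, chr10:77166549-77166680 on the minus strand. Col8a1 is at chr16:57754738-57754887 on the minus strand, Col8a2 at chr4:126286644-126286792, Col24a1 at chr3:145292322-145292471 and Col3a1 at chr1:45311388-45311537, each of these 3 on the plus strand.
Col18a1: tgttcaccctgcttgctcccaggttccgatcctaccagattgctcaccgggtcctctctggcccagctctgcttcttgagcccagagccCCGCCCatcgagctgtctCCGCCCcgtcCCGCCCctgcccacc
Col8a1: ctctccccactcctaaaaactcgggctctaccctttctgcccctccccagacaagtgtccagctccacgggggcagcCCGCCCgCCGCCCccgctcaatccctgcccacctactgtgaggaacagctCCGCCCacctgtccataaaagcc
Col8a2: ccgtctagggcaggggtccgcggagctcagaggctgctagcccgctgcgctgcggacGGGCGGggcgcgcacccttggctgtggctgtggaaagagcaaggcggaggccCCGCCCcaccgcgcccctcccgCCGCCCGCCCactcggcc
Col24a1: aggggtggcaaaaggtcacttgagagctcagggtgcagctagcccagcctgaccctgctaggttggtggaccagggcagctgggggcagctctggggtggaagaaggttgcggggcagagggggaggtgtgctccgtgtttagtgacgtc
Col3a1: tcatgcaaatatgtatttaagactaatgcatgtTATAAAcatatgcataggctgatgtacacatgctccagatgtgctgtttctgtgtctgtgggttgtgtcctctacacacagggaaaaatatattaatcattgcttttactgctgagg

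Col18a1, Col8a1 and Col8a2, which DESeq2 called lower, hold 3, 3 and 4 GC boxes, and Col24a1, which it called higher, holds none of the motifs. Col3a1, also lower (log2 fold change -0.86) but not called, holds 1 TATA box and no GC box. Over the 43 windows of 150 bases found for 39 member genes, 21 (48.8%) hold a GC box, against 28.6% of all 32851 windows. A CCAAT box is in 7 of them (16.3%, against 24.5%) and a TATA box in 3 (6.98%, against 7.57%). These are descriptions of letters in a window and were not tested.

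Among the 5 fibrillar collagens of the meninges, TSC1 replicate 2 held the lowest level of each, and TSC1 replicate 3 held levels within or above the WT range. None was called, 1 (Col3a1) had an unadjusted p below 0.05, and DESeq2 called none. Col1a1 and Col1a2 encode the chains of type I collagen, the most abundant fibrillar collagen. Col1a1 was at 39.1, 33.4 and 19.1 TPM in WT replicates 1, 2 and 3 and at 18.3, 11.8 and 44.1 TPM in TSC1. Its highest value was in TSC1 replicate 3 and its lowest in TSC1 replicate 2, and the log2 fold change was -0.31 ± 0.42 (SE, adjusted p = 0.736). Col1a2 was at 78.6, 76.5 and 48.3 TPM in WT and at 40.7, 24.9 and 71.7 TPM in TSC1. The order of the libraries was similar to that of Col1a1, and the log2 fold change was -0.58 ± 0.33 (adjusted p = 0.385).

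Col3a1, the single chain of type III collagen, was at 82.3, 79.1 and 50.6 TPM in WT and at 38.8, 25.4 and 54.0 TPM in TSC1. Only TSC1 replicate 3 exceeded a WT library, by a small margin over WT replicate 3, and the log2 fold change of -0.86 ± 0.25 was the largest of the 5, with an adjusted p of 0.121. Col5a1 and Col5a2 encode chains of type V collagen, which nucleates the fibrils of type I. Col5a1 was at 13.6, 13.8 and 10.01 TPM in WT and at 10.2, 6.56 and 12.7 TPM in TSC1 (log2 fold change -0.36 ± 0.21, adjusted p = 0.411). Col5a2 was at 20.7, 21.9 and 14.7 TPM in WT and at 15.2, 10.7 and 17.9 TPM in TSC1 (log2 fold change -0.41 ± 0.19, adjusted p = 0.302). For both genes TSC1 replicate 2 was the lowest of the 6 libraries and the groups overlapped.

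**Figure D2:**
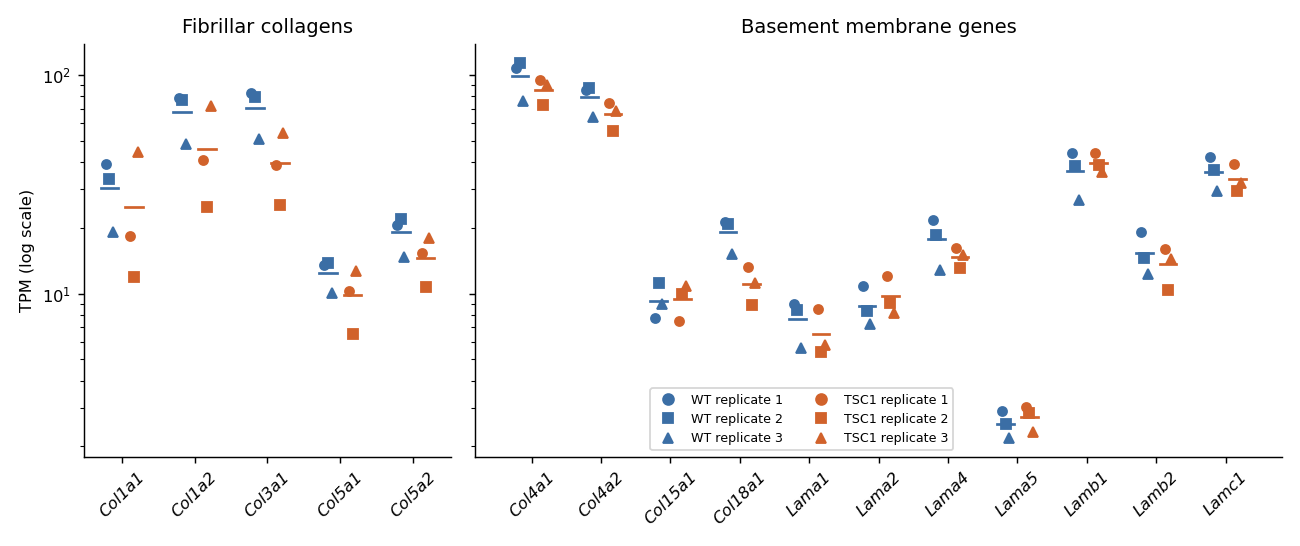
TPM (log scale) of the 5 fibrillar collagens of the meninges and of 11 basement membrane genes in each library, with WT in blue, TSC1 in orange, a marker shape for each replicate number and bars at the group means. For every fibrillar collagen the orange triangle (TSC1 replicate 3) lies above the other 2 TSC1 libraries, while for Col18a1 all 3 TSC1 libraries lie below all WT libraries.

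The fits without TSC1 replicate 3 gave larger differences for these genes. By Xist that library was the only male one in TSC1, so leaving it out alone also left the sexes unbalanced between the groups. The median log2 fold change of the 5 was -0.41 over all 6 libraries (range -0.86 to -0.31) and -1.05 without that library, while the median of all genes stayed at -0.0015. Without it, Col1a1 (-1.05, adjusted p = 0.0487), Col1a2 (-1.09, adjusted p = 0.0245) and Col3a1 (-1.17, adjusted p = 0.0136) were called. Col5a1 (-0.60, adjusted p = 0.0864) and Col5a2 (-0.59, adjusted p = 0.0845) were not. Across the family 14 members were then called lower, where 3.06% of all genes were (among them Col14a1, Col18a1, Col22a1, Col25a1, Col26a1, Col27a1, Col6a5, Col8a1, Col8a2 and Col9a2). Without both number 3 libraries 13 members were called lower, where 2.04% of all genes were, and the median of the 5 fibrillar collagens was -1.26. Leaving out any 1 of the other 5 libraries left 0 members called. Without TSC1 replicate 2 the log2 fold change of Col1a1 was 0.02.

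**Figure D3:**
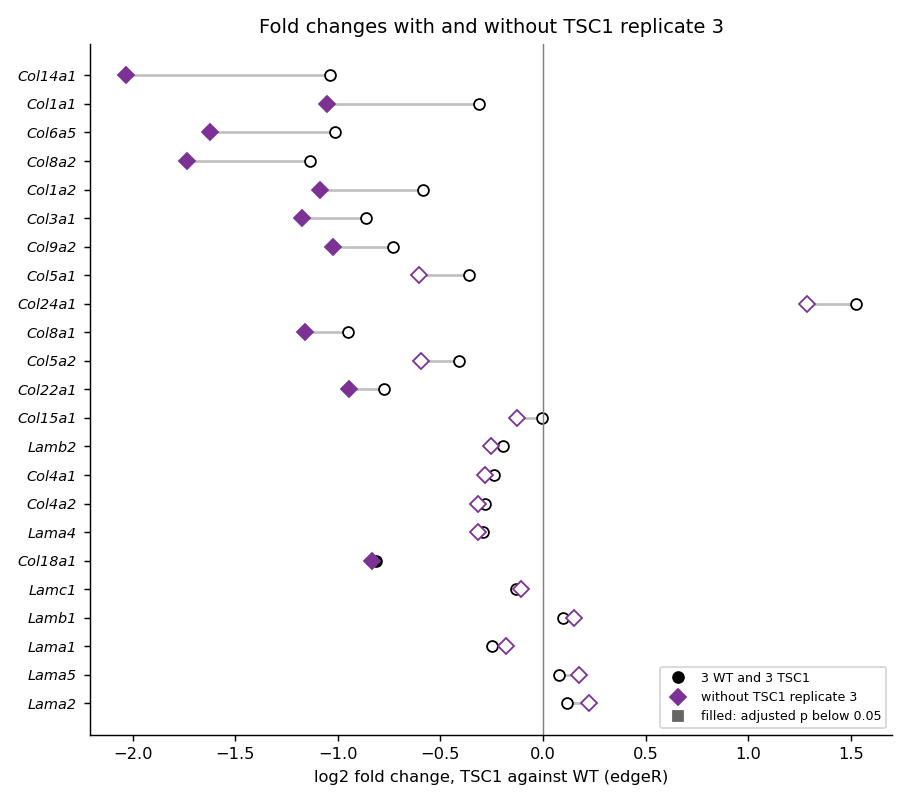
Log2 fold change of TSC1 against WT (edgeR) for the 23 members described by name, with all 6 libraries (black circles) and without TSC1 replicate 3 (purple diamonds), filled where the adjusted p was below 0.05. Col14a1 and Col1a1 move farthest, from -1.04 to -2.03 and from -0.31 to -1.05, and Col18a1 hardly moves, from -0.82 to -0.83.

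TSC1 replicate 3 also differed from the other libraries in Ibsp and Mmp13, genes expressed in bone, a tissue whose main collagen is type I. Ibsp, a bone sialoprotein, was at 15.5 TPM there and between 0.21 and 1.63 TPM elsewhere, and Mmp13, a collagenase of bone and cartilage, was at 5.93 TPM against at most 0.33 TPM. The 6 bone markers summed to 28.1 TPM in it, to between 9.08 and 13.7 TPM in WT and to 9.21 and 5.66 TPM in the other TSC1 libraries. Most of that excess was Ibsp: the other 5 bone markers summed to 12.7 TPM in TSC1 replicate 3 and to 12.1 TPM in WT replicate 1. Runx2, at 2.88 TPM, was lowest of the TSC1 libraries there, but above the WT range of 1.58 to 2.1 TPM. Alpl, at 6.31 TPM, lay within the WT range, and Bglap and Dmp1, at 1.62 and 1.33 TPM, were highest in TSC1 replicate 3. Of the 2 bone markers with enough counts, neither was called by edgeR or DESeq2 and 1, Runx2, was higher in TSC1 at an unadjusted p below 0.05. Cartilage markers did not set that library apart, with sums of 6.14 to 11.1 TPM in WT and 5.54 to 7.33 TPM in TSC1, and of the 4 tested 1 had an unadjusted p below 0.05 and 0 were called by edgeR or DESeq2. Comp, a cartilage matrix gene, was at most 0.26 TPM. Skeletal muscle markers summed to 8.42 to 8.68 TPM in WT and to 7.34, 7.28 and 9.52 TPM in TSC1, with 1 of 2 tested at an unadjusted p below 0.05 and 0 called by edgeR or DESeq2. Ckm, the muscle creatine kinase gene, was at most 0.38 TPM. The part of these cells in the collagen values was not tested.

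The markers of meningeal fibroblasts varied between libraries as well. Their sum was 1455, 1695 and 964 TPM in WT and 1352, 513 and 1316 TPM in TSC1. TSC1 replicate 2, the library with the least fibrillar collagen, was also the one with the least marker RNA. The 2 orders were not the same throughout. TSC1 replicate 1 held more marker RNA than WT replicate 3 but less fibrillar collagen (123 against 143 TPM). All 10 markers had a log2 fold change below 0 (median -0.51), 4 had an unadjusted p below 0.05, none was called by edgeR and 2 were by DESeq2. Without TSC1 replicate 3, Crabp2 and Igf2 of these were called. Most of the sum was Ptgds. The other 9 markers summed to 434, 499.7 and 320.1 TPM in WT and to 306, 174 and 318 TPM in TSC1. The part of the number of fibroblasts in the collagen differences was not tested.

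Over the 19 basement membrane members, all tested, the median log2 fold change was -0.21 (range -0.82 to 0.12), 15 were below 0 and 1 was called. Without TSC1 replicate 3 the median was -0.23 and 2 were called, 1 of them Col18a1. Col4a1 and Col4a2, the chains of the type IV collagen found in every basement membrane, were the most abundant members of the list. Col4a1 was at 108, 114 and 76.2 TPM in WT and at 94.5, 72.6 and 89.4 TPM in TSC1 (log2 fold change -0.24 ± 0.14, adjusted p = 0.409). Col4a2 was at 84.9, 87.3 and 64.2 TPM in WT and at 74.5, 55.2 and 68.2 TPM in TSC1 (log2 fold change -0.28 ± 0.13, adjusted p = 0.280). In both genes the groups overlapped, and WT replicate 3 lay below TSC1 replicates 1 and 3.

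The other type IV chains are restricted to particular basement membranes. Col4a5 was between 10.2 and 15.4 TPM and Col4a6 between 3.70 and 6.14 TPM over the 6 libraries, and Col4a3 and Col4a4 were at most 0.42 and 1.02 TPM. None of the 4 was called, with log2 fold changes between -0.22 and 0.11. Col15a1, which encodes a collagen close to that of Col18a1 in structure, was at 7.75, 11.1 and 8.95 TPM in WT and at 7.51, 10 and 10.8 TPM in TSC1. The groups overlapped throughout, and its log2 fold change was -0.0034 ± 0.18 (adjusted p = 0.994).

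Col18a1 was at 21.3, 20.8 and 15.2 TPM in WT and at 13.22, 8.84 and 11.2 TPM in TSC1. Every TSC1 library was below every WT library, and TSC1 replicate 3 lay between the other TSC1 libraries. The means were 19.1 ± 3.42 TPM and 11.1 ± 2.19 TPM (SD, n = 3 each), and the log2 fold change was -0.82 ± 0.16 with an edgeR adjusted p of 0.0479. It was called without TSC1 replicate 3 (-0.83, adjusted p = 0.0339), and not called when any 1 of the other libraries was left out, with log2 fold changes between -0.95 and -0.68 in those fits. The GC boxes upstream of its distal start are printed above.

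Markers of the choroid plexus, the epithelium that makes the cerebrospinal fluid, also moved with the groups. Their sum was 1716, 1182 and 2487 TPM in WT and 33.3, 111 and 872 TPM in TSC1, and most of it was Ttr, the transthyretin gene. All 8 markers were lower in TSC1 with no overlap and an unadjusted p below 0.05, and 0 were called by edgeR and 5 by DESeq2. Without TSC1 replicate 3, edgeR called 7 lower, where 3.06% of all genes were. Within each group their sum was highest in replicate 3. Col18a1 did not follow that order: replicate 3 was its lowest WT library, at 15.2 TPM, and its middle TSC1 library, at 11.2 TPM. Not every single marker was highest in replicate 3. The part of the choroid plexus in the level of Col18a1 was not tested.

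Among the laminins no gene was called by edgeR or DESeq2, 2 had an unadjusted p below 0.05, and the median log2 fold change of the 11 was -0.19. Laminins are trimers of an alpha, a beta and a gamma chain, and Lamb1 and Lamc1 are the beta and gamma chains of the most common trimers. Lamb1 was at 43.8, 38.5 and 26.7 TPM in WT and at 43.9, 38.7 and 36.0 TPM in TSC1 (log2 fold change 0.10 ± 0.15, adjusted p = 0.761). Lamc1 was at 42.1, 36.9 and 29.4 TPM in WT and at 39.3, 29.4 and 32.0 TPM in TSC1 (log2 fold change -0.13 ± 0.13, adjusted p = 0.627). In both genes the lowest or nearly lowest library was WT replicate 3, and the groups overlapped.

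The alpha chains give a laminin its tissue. Lama4, a chain of vessels, was at 21.8, 18.6 and 12.9 TPM in WT and at 16.1, 13.1 and 15.1 TPM in TSC1 (log2 fold change -0.29 ± 0.16, adjusted p = 0.375). Lama2, a chain found in vessels and muscle, was at 10.9, 8.29 and 7.23 TPM in WT and at 11.97, 9.04 and 8.13 TPM in TSC1 (log2 fold change 0.12 ± 0.16, adjusted p = 0.739). Lama1, a chain of the pial membrane, was at 8.92, 8.38 and 5.65 TPM in WT and at 8.47, 5.39 and 5.81 TPM in TSC1 (log2 fold change -0.25 ± 0.19, adjusted p = 0.530). Each of the 3 genes had overlapping groups. Lama5, another chain of vessels, was at 2.89, 2.54 and 2.19 TPM in WT and at 3.03, 2.84 and 2.32 TPM in TSC1 (log2 fold change 0.08 ± 0.14, adjusted p = 0.814). Lama3, a chain of epithelia, was between 0.65 and 0.83 TPM in all 6 libraries. The 5 alpha chains thus held 3 fold changes below 0 and 2 above.

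Of the remaining beta and gamma chains, Lamb2 was at 19.2, 14.5 and 12.3 TPM in WT and at 15.9, 10.4 and 14.4 TPM in TSC1 (log2 fold change -0.19 ± 0.18, adjusted p = 0.604). Lamc3 was between 4.64 and 9.81 TPM (log2 fold change -0.45 ± 0.19, adjusted p = 0.262), and Lamb3 was at most 1.02 TPM.

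Vessel markers were given the same comparison because vessels carry much of the basement membrane. Endothelial markers summed to 334, 334 and 266 TPM in WT and to 287, 246 and 250 TPM in TSC1, and 7 of 10 had a log2 fold change below 0 (median -0.33). At an unadjusted p below 0.05, 5 were lower and 1 higher, where 8.93% and 9.04% of all genes were. None was called by edgeR, and DESeq2 called 3 lower, where it called 2.15% of all genes lower. Mural cell markers summed to 252, 248 and 195 TPM in WT and to 196, 162 and 185 TPM in TSC1, and 7 of 9 were below 0 (median -0.31). At an unadjusted p below 0.05, 4 were lower and 1 higher, edgeR called none and DESeq2 called 1 lower. In both lists WT replicate 3 was the lowest WT library, as it was for Col4a1, Col4a2, Lamb1 and Lamc1. It was also the lowest WT library in the sum of the meningeal fibrillar collagens (143 TPM) and of the meningeal fibroblast markers (964 TPM). The part of vessel cells in the basement membrane values was not tested.

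**Figure D4:**
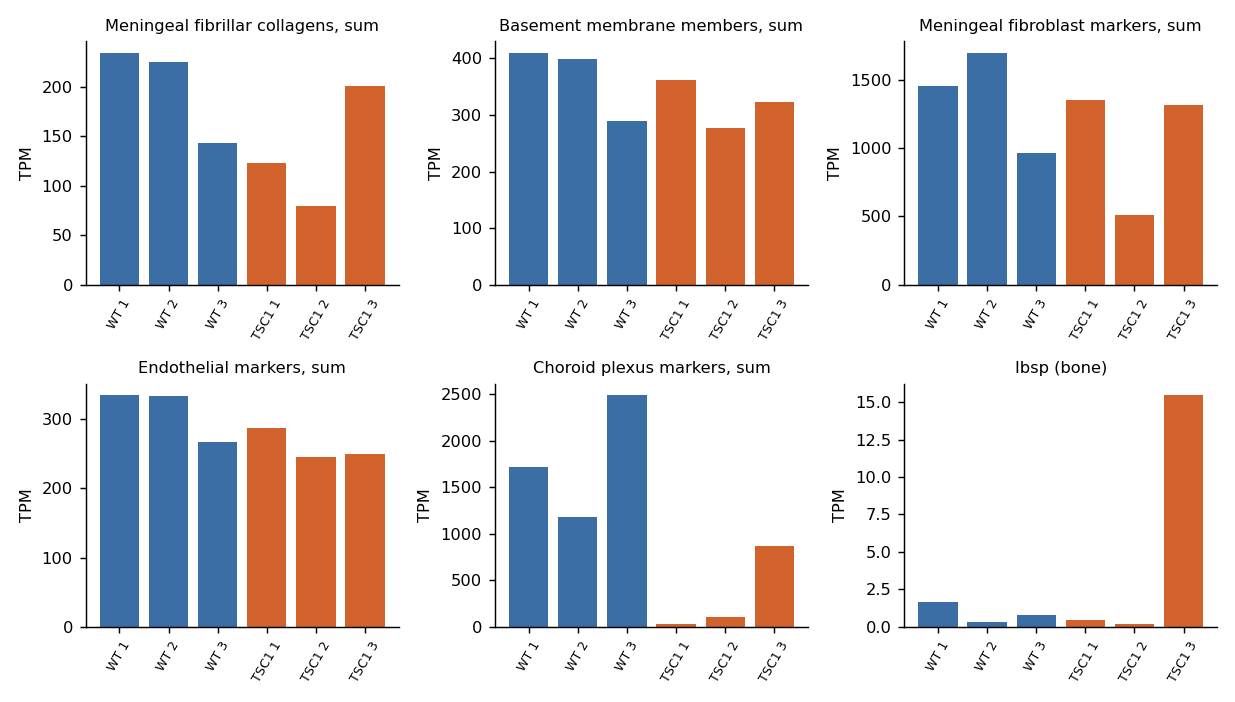
Summed TPM in each library (bars from 0, WT in blue and TSC1 in orange) of the 5 fibrillar collagens of the meninges, the 19 basement membrane members, 3 marker lists, and the level of the bone gene Ibsp. The fibrillar sum runs from 79.4 to 234 TPM, the basement membrane sum from 278 to 409.7 TPM, and Ibsp reaches 15.5 TPM in TSC1 replicate 3 only.

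Set against each other within a library, the fibrillar and basement membrane genes did not separate the groups. The 5 fibrillar collagens summed to 234, 225 and 143 TPM in WT and to 123, 79.4 and 200.5 TPM in TSC1, and the 19 basement membrane members to 409.7, 399 and 289.6 TPM in WT and to 362, 278 and 323 TPM in TSC1. The ratio of the fibrillar to the basement membrane sum was 0.572, 0.564 and 0.493 in WT and 0.341, 0.286 and 0.620 in TSC1. TSC1 replicates 1 and 2 had the lowest ratios and TSC1 replicate 3 the highest of all 6, and the means were 0.543 ± 0.0433 and 0.416 ± 0.179 (SD, n = 3 each).

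The ratio of chains that are assembled together was taken in each library. The ratio of Col4a1 to Col4a2, which are transcribed from a shared promoter region, was between 1.19 and 1.32 in all 6 libraries. The ratio of Col1a1 to Col1a2 was 0.497, 0.437 and 0.396 in WT and 0.450, 0.476 and 0.615 in TSC1, highest in TSC1 replicate 3. The ratio of Lamb1 to Lamc1 was 1.04, 1.04 and 0.906 in WT and 1.12, 1.32 and 1.12 in TSC1. It was the only 1 of the 8 ratios computed whose groups did not overlap, and it was given no test. Among single genes, 11.7% of all tested were lower and 10.9% higher in TSC1 with no overlap. Ratios of Col6a1 to Col6a2 (0.999 to 1.58), of Col8a1 to Col8a2 (0.811 to 1.46), of Lama2 to Lamc1 (0.225 to 0.308) and of Lama4 to Lamc1 (0.409 to 0.517) overlapped between the groups.

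**Figure D5:**
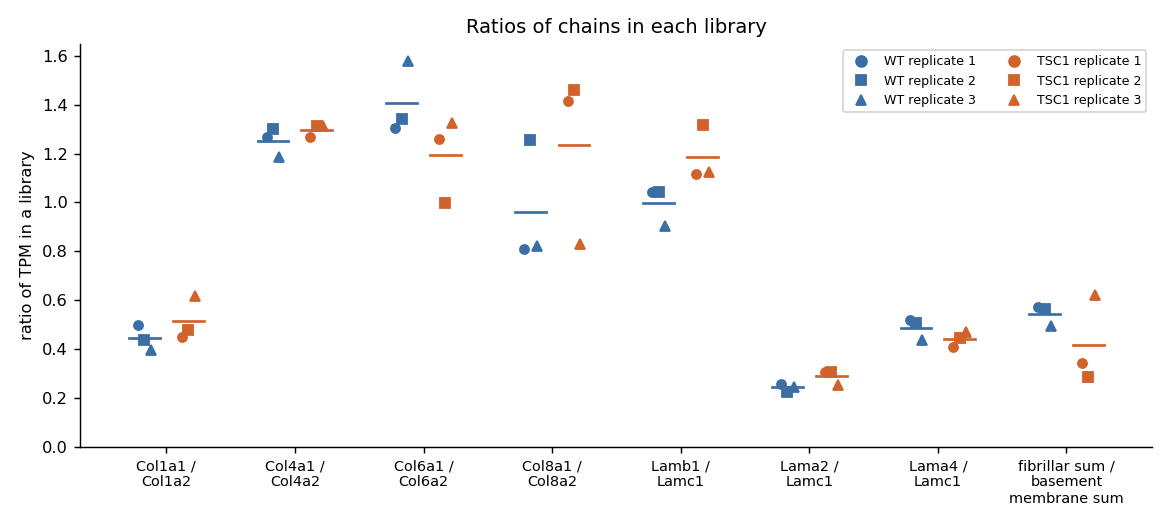
Ratio of the TPM of paired chains in each library (vertical axis from 0, WT in blue, TSC1 in orange, marker shape by replicate number, bars at the group means). The ratio of Lamb1 to Lamc1 is above 1.1 in the 3 TSC1 libraries and at most 1.04 in WT, and the fibrillar to basement membrane ratio of TSC1 replicate 3, at 0.620, lies above all others.

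The short chain network collagens had the lowest median of all roles, -1.04 over the 2 genes tested. Col8a1 and Col8a2 encode the chains of type VIII collagen, a network former of vessel walls and corneal membranes. Col8a1 was at 3.95, 5.51 and 3.97 TPM in WT and at 2.39, 1.74 and 2.94 TPM in TSC1, and Col8a2 at 4.87, 4.39 and 4.83 TPM in WT and at 1.69, 1.19 and 3.55 TPM in TSC1. All 3 TSC1 libraries were below all WT libraries for each gene. The log2 fold changes were -0.95 ± 0.23 (edgeR adjusted p = 0.0720) and -1.14 ± 0.33 (edgeR adjusted p = 0.118), so neither passed the test, while DESeq2 called both. Both were called without TSC1 replicate 3, with log2 fold changes of -1.16 and -1.74.

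FACIT collagens are not fibrillar themselves and bind to the surface of fibrils or to membranes. Of the 8 tested, 7 had a log2 fold change below 0 (median -0.30), 2 had an unadjusted p below 0.05, edgeR called none and DESeq2 called 1, Col22a1. Col22a1, a collagen of tissue junctions, was at 3.23, 3.19 and 3.62 TPM in WT and at 1.86, 1.70 and 2.39 TPM in TSC1, with no overlap (log2 fold change -0.77 ± 0.18, adjusted p = 0.0683). Col9a2, a chain of type IX collagen, was at 9.01, 10.9 and 12.4 TPM in WT and at 5.65, 5.22 and 8.88 TPM in TSC1, where only TSC1 replicate 3 came close to a WT library (log2 fold change -0.73 ± 0.23, adjusted p = 0.142). Col9a3, its partner chain, was between 26.5 and 41.3 TPM and did not separate the groups (log2 fold change -0.15 ± 0.18, adjusted p = 0.70). Col14a1, which binds type I fibrils, was at 1.24, 0.95 and 0.68 TPM in WT and at 0.35, 0.12 and 0.91 TPM in TSC1, with 4 to 46 counts per library. Its 6 values overlapped through TSC1 replicate 3, and the log2 fold change was -1.04 ± 0.52 (adjusted p = 0.332).

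Type VI collagen forms beaded filaments around cells and is made by fibroblasts. Of the 5 genes tested, 4 had a log2 fold change below 0 (median -0.45), 2 had an unadjusted p below 0.05 and none was called by edgeR or DESeq2. Col6a1 was at 32.0, 34.6 and 24.5 TPM in WT and at 21.8, 11.2 and 27.0 TPM in TSC1 (log2 fold change -0.63 ± 0.26, adjusted p = 0.254). Col6a5 was at 0.52, 0.87 and 1.04 TPM in WT and at 0.24, 0.30 and 0.66 TPM in TSC1, with 12 to 53 counts per library (log2 fold change -1.02 ± 0.41, adjusted p = 0.239). In both genes TSC1 replicate 3 was above the lowest WT library.

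The highest fold change of the family was that of Col24a1, a minor fibrillar collagen. It was at 0.39, 0.66 and 0.53 TPM in WT and at 1.75, 0.91 and 2.0 TPM in TSC1, from 16 to 31 counts in WT and 33 to 83 counts in TSC1. Every TSC1 library was above every WT library, and the log2 fold change was 1.52 ± 0.34 (edgeR adjusted p = 0.0610). DESeq2 called it. The other 5 minor fibrillar genes, among them the cartilage collagen Col2a1 at 2.54 to 3.86 TPM, held log2 fold changes from -0.64 (Col27a1) to 0.67 (Col5a3), and none was called by edgeR or DESeq2.

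The remaining members were called by neither edgeR nor DESeq2, and none had an unadjusted p below 0.05. The transmembrane collagens had a median of -0.51 over 3 genes, with Col23a1 at 12.4 to 17.6 TPM and Col25a1 at 4.14 to 10.5 TPM, and the 3 other collagens (Col7a1, Col26a1 and Col28a1) had a median of -0.44. Col25a1 and Col26a1 were each highest among the TSC1 libraries in replicate 3. Col10a1, Col20a1 and Col6a6 held at most 5, 11 and 3 counts in a library and were not tested.

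Genes that work with collagens and laminins were compared in the same fit, and edgeR called none of the genes in these 5 lists. Of 8 other basement membrane genes, 7 had a log2 fold change below 0 (median -0.29), 4 were lower at an unadjusted p below 0.05 and DESeq2 called 2. Sparc, a collagen-binding protein, was the most abundant at 388, 384 and 315 TPM in WT and 318, 261 and 336 TPM in TSC1 (log2 fold change -0.28 ± 0.10, adjusted p = 0.203). Of 12 fibril-associated genes, 10 were below 0 (median -0.43), 4 had an unadjusted p below 0.05 and DESeq2 called 2. Without TSC1 replicate 3, edgeR called 5 of them lower, where 3.06% of all genes were. The log2 fold changes of the 12 ran from -1.21 to 0.42, and the lowest was that of Ogn, a small proteoglycan of fibrils. Ogn was at 54.9, 52.7 and 33.0 TPM in WT and at 16.2, 13.0 and 32.2 TPM in TSC1 (log2 fold change -1.21 ± 0.31, adjusted p = 0.0905). As in the fibrillar collagens, Ogn and the sum of the list were higher in TSC1 replicate 3 than in the other TSC1 libraries.

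Genes of collagen synthesis and cross-linking had a median of -0.09 over 26 tested, with 16 below 0 and 10 above. At an unadjusted p below 0.05, 4 were lower and 2 higher, where 8.93% and 9.04% of all genes were. DESeq2 called 2 lower, where it called 2.15% of all genes lower. Serpinh1, the collagen chaperone of the endoplasmic reticulum, was at 117, 120.5 and 105 TPM in WT and at 83.9, 64.1 and 91.8 TPM in TSC1, with no overlap (log2 fold change -0.54 ± 0.12, adjusted p = 0.0673). Of 14 receptors tested, 10 were below 0 (median -0.12), 5 were lower and 1 higher at an unadjusted p below 0.05, and DESeq2 called none. Gpr56, the receptor of collagen III, was at 109.9, 98.4 and 105 TPM in WT and at 97.9, 94.3 and 89.1 TPM in TSC1, with all TSC1 libraries a little below the WT libraries (log2 fold change -0.18 ± 0.07, adjusted p = 0.187). Matrix proteases and their inhibitors had a median of -0.10 over 9 tested, with 6 below 0, 1 of them at an unadjusted p below 0.05, and DESeq2 called none. Among the telencephalon markers, Dlx1 (log2 fold change -0.68 ± 0.10, adjusted p = 0.0183) and Gad2 (-1.03 ± 0.18, adjusted p = 0.0318), genes of inhibitory neurons, were called lower and 0 of 7 were called higher.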

How the data were processed

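Total RNA of telencephalon from 3 WT and 3 TSC1 mice was sequenced as paired ends after a library kit that does not mark strand, so reads of overlapping genes cannot be told apart. The authors aligned reads to mm10 and quantified RefSeq genes, whose release is not given in the sources used here, with RSEM 1.2.12. The submitters' processing notes also name FastQC. The deposited expected count is RSEM's estimate of the reads of a gene, with no normalization, and the deposited TPM is that count divided by effective length and scaled to the library. The deposited lengths served as an offset in 1 alternative.

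Groups came from the genotype labels, and the p-values weigh the difference between the groups against the spread between these mice. After rounding, the expected counts went into edgeR 4.0.16 under R 4.3.3 (TMM scaling, genes kept by filterByExpr, quasi-likelihood test, Benjamini-Hochberg adjustment over 13969 genes), with DESeq2 1.42.0, limma 3.58.1 on log2(TPM + 1) and log2(TPM + 0.1), other filters and scalings, a replicate block and each library left out as alternatives. The fits were tested on simulated data with 200 genes changed by 1.5 log2 units, the same replicate spread set for every gene and no outlying library. That test does not cover libraries that differ as these do. Libraries of a group differed beyond sampling noise (chi-square per degree of freedom 5.67 to 17.4). The study's own integrative test was not rebuilt. Lists are described by counts and medians. The rule for members uses gene names alone, but the family and the lists were chosen with earlier results of these data known. Members named with full values were the 5 meningeal fibrillar collagens, 11 basement membrane genes, every called member and the 10 largest absolute fold changes. Other members given as examples, such as Col6a1 and Col9a3, and Crabp2, Mmp13, Comp, Ckm and Dmp1 outside the family, were picked after their values were seen. Tsc1 and Xist were given as checks, and the remaining genes outside the family were called genes or among the most abundant of their list. Ogn and Serpinh1 had larger absolute fold changes than the more abundant genes of their lists, which are not named. Values of 1 member and 1 marker are not reported here, although both stayed in the fits, counts and medians.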

Additional observations from a re-analysis of the deposited data

How the results depend on the processing

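The number of genes called, 212, was 640 with DESeq2, 346 with no filter and 434 without both number 3 libraries, and between 29 and 799 when 1 library was left out. Members called lower, 1, became 4 with DESeq2, 2 with no filter, 0 in both limma fits, 13 without both number 3 libraries and between 0 and 14 with 1 library left out. The 14 came without TSC1 replicate 3 and the 0 in each of the other 5 fits. Members called higher, 0, became 1 with DESeq2 and 1 with no filter (Col24a1 in both). The median log2 fold change of the meningeal fibrillar collagens, -0.41, was -1.26 without both number 3 libraries and between -1.05 and -0.23 with 1 library left out. That of the basement membrane members, -0.21, stayed within the spread between replicates in every alternative. Signs changed for Col1a1 (between -1.05 and 0.0200 with 1 library left out), Col15a1 (0.0208 and 0.0226 in limma, and between -0.137 and 0.155 with 1 library left out), Lama2 (between -0.0408 and 0.271) and Lamb1 (-0.0116 without both number 3 libraries, and between -0.0640 and 0.228 with 1 left out). Col18a1 was not called in the limma fits. The cause of these changes was not tested beyond the libraries named.

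Replicate numbers are shared by the groups, but same-numbered libraries did not all deviate together (correlations 0.267, -0.133 and 0.318), so they were not treated as pairs. With a replicate block, 551 genes and 3 members (Col18a1, Col22a1 and Col9a2) were called, the members all lower. Col10a1, Col20a1 and Col6a6, with at most 5, 11 and 3 counts in a library, were too low to test.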
